A study of Mus musculus with 6 samples.

Results

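The genes described here are Rtf1, the 5 core genes of the PAF1 complex (Paf1, Ctr9, Cdc73, Leo1 and Wdr61) and the 4 genes of the enzymes that attach ubiquitin to histone H2B (Rnf20, Rnf40, Ube2a and Ube2b). They were chosen by symbol, and all 10 were among the 31017 genes of the count table. RNA was sequenced from mouse Th17 cells differentiated in culture, in 3 libraries labelled control (genotype WT) and 3 labelled KO (RTF1-deficient). Strain, age of the animals, culture conditions and the way Rtf1 was inactivated are not given in the sources used here. Whether each library came from a separate animal is not given either. The p-values set the difference between the groups against the spread between these libraries, which may be partly technical.

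The PAF1 complex travels with RNA polymerase II along transcribed genes. RTF1 associates with it, and a segment of RTF1 named the histone modification domain stimulates the transfer of a single ubiquitin to histone H2B. The transfer itself is made by an E2 enzyme, encoded in mammals by the paralogs Ube2a and Ube2b (both relatives of yeast RAD6), together with an E3 ligase formed by RNF20 and RNF40. Ubiquitin on H2B in turn favours methylation of histone H3 at lysines 4 and 79, by SET1-type complexes and by DOT1L. Th17 cells are helper T cells that secrete interleukin 17.

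Total counts ran from 16489813 to 51271226 per library, and each of the 10 genes had between 515 and 8391 counts in every library. Levels are given as CPM, counts scaled to a common library total with TMM factors, which ran from 0.945 to 1.04. The T cell markers Cd3e, Cd3g, Cd4, Trac and Trbc2 summed to 1200 to 1482 CPM in control and 1117 to 1398 CPM in KO, with 2 called higher and 1 lower. Within this sum Cd4 ran from 443 to 539 CPM in control and from 218 to 290 CPM in KO, whereas Cd3e ran from 180 to 209 CPM and from 289 to 347 CPM. The Th17 markers Il17a, Il17f, Il23r, Ccr6, Rora and Il21 summed to 2161 to 2778 CPM in control and 615 to 1369 CPM in KO, with 5 of these 6 called lower. Markers of B cells, myeloid cells, erythroid cells and fibroblasts summed to no more than 3.61 CPM per list in any library, and those of CD8 and NK cells to 5.39 to 10.5 CPM, nearly all from Cd8b1, with Ncr1 and Klrb1c at 0. Of the myeloid markers, which summed to 0.669 to 0.784 CPM in control and 1.71 to 3.61 CPM in KO, 1 of the 2 tested was called higher. Beside these counts of markers, 23.2% of all 14268 tested genes were called higher and 22.9% lower (edgeR adjusted p under 0.05). The mitochondrial share of counts was 0.978% ± 0.292 among control libraries and 1.30% ± 0.173 among KO libraries (SD, n = 3). Y-linked genes had 11376 counts in control replicate 3 and 5147 in KO replicate 3, against 1 to 3 in the other libraries. Xist, expressed in female cells, had 5 and 1 counts in these replicates 3 and 14668 to 28176 in the other libraries. Sex thus differed within each group, in the same way in both, so the libraries of a group did not all come from the same animal. The part of these differences in the results that follow was not tested.

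Regulatory sequence is shown for Rtf1 and for the other members that were called, to show what lies in front of an annotated start of the genes whose RNA differed. The RefSeq table (GRCm38.p6) held start sites for 8 of the 10 members. Each stretch ends at the base before the annotated start, reads 5′ to 3′ on the gene's own strand, and was cut where an annotated exon began. Capitals mark matches, on either strand, to GGGCGG (a GC box), CCAAT or CACGTG (an E-box), letters chosen after the windows were seen. The stretches lie at chr2:119674968-119675067 (plus strand, Rtf1), chr1:143702894-143702993 (minus strand, Cdc73), chr7:127588598-127588697 (plus strand, Rnf40), chrX:36874195-36874294 (plus strand, Ube2a) and chr11:52000787-52000852 (minus strand, Ube2b). No stretch is shown for Paf1, whose RefSeq start lies inside an exon of the GENCODE annotation. The stretch for Ube2a precedes its RefSeq start but lies within the gene as GENCODE draws it (chrX:36873900-36884222), between exons and downstream of the outermost start.
Rtf1: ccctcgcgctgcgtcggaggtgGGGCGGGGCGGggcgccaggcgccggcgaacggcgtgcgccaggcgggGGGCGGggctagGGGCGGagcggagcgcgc
Cdc73: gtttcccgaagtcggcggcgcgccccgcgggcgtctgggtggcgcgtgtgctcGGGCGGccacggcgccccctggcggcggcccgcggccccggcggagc
Rnf40: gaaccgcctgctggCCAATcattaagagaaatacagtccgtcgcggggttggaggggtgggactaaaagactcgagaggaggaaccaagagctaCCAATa
Ube2a: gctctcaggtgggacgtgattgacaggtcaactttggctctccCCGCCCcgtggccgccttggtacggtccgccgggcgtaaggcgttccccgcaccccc
Ube2b: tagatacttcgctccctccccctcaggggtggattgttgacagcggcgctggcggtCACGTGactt
The stretch before Rtf1 held 4 matches to the GC box, some of them overlapping, while those before Cdc73 and Ube2a held 1 each. In the 250 bases before the start, GGGCGG stood in 5 of the 8 members (Rtf1, Paf1, Cdc73, Leo1 and Ube2a) and in 32.7% of all 32851 RefSeq windows. CCAAT stood in Paf1 and Rnf40 and in 33.8% of all windows, and CACGTG in Ube2b and in 6.02%. TATAAA stood in Rnf20 (12.4% of all windows) and CCGGAAG in Rtf1 (6.91%), whereas TGACGTCA (1.55%) stood in none of the 8. None of the 6 motifs searched stood in all 4 of the members that were called higher in KO.

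Of the 10 genes, 6 were called at an adjusted p-value under 0.05 in edgeR's quasi-likelihood test, 2 lower (Rtf1 and Cdc73) and 4 higher in KO (Paf1, Rnf40, Ube2a and Ube2b). Across all 14268 tested genes 46.1% were called, 22.9% lower and 23.2% higher, so a count of 6 in 10 stands near the level of the whole transcriptome. When only library size was used for scaling, 6 members were called higher and 1 lower. The median log2 fold change was 0.31 over the 10 genes and 0.013 over all tested genes. In 8 of the 10 the KO libraries did not overlap the control libraries, which held for 57.9% of all tested genes. All values are amounts of RNA per library, in which fewer cells of a type and less RNA per cell cannot be told apart, and none measures protein or H2B ubiquitin.

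**Figure D1:**
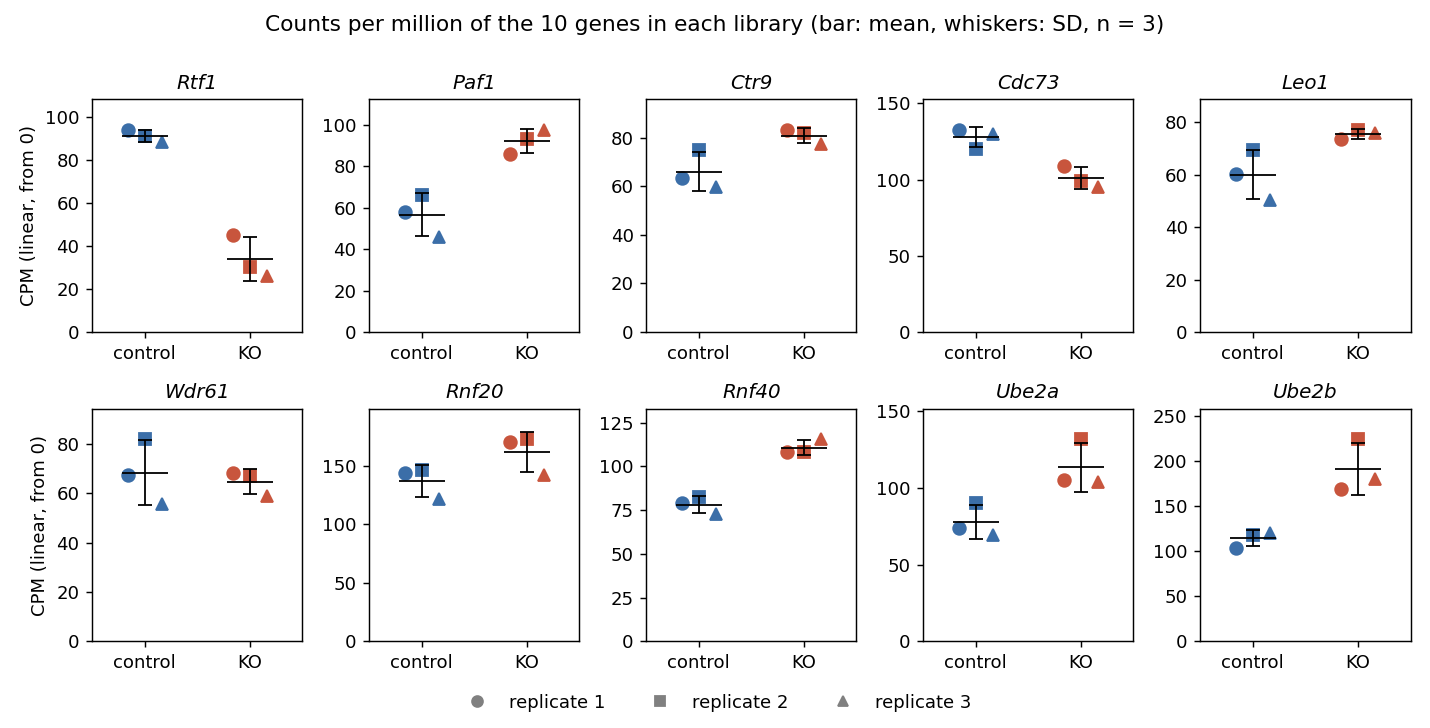
CPM of each of the 10 genes (vertical axis, linear from 0, a separate scale for each gene) in the 3 control and 3 KO libraries, with symbols for the replicate number, horizontal bars for the mean and whiskers for the SD. KO libraries lie below control for Rtf1 and Cdc73, above it for Paf1, Ctr9, Leo1, Rnf40, Ube2a and Ube2b, and overlap it for Wdr61 and Rnf20.

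Rtf1 was the gene whose loss defines the KO label. Its control libraries held 94.0, 91.2 and 88.3 CPM in replicates 1, 2 and 3, and its KO libraries 45.3, 30.4 and 26.2 CPM. The control values lay close together, whereas KO replicate 1 held the most residual Rtf1 RNA. The log2 ratio of KO to control within the replicate numbers 1, 2 and 3 was −1.05, −1.59 and −1.75. The fitted log2 fold change was −1.42 (SE 0.191, 95% interval −1.86 to −0.991, edgeR adjusted p = 0.000755), and a larger absolute change was found in 13.8% of all tested genes. The counts cover the whole gene (GRCm38 chr2:119675068-119735407, 18 blocks of exons) and do not tell which exons the remaining RNA holds.

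Among the core subunits, Paf1, which names the complex, was the one called higher. Ctr9 and Leo1, given below, also lay above control in every KO library but were not called. Its control libraries held 57.7, 66.3 and 45.9 CPM and its KO libraries 85.8, 93.0 and 97.6 CPM. Even the highest control library, replicate 2, stayed below every KO library. The log2 fold change was 0.70 (SE 0.146, 95% interval 0.37 to 1.03, edgeR adjusted p = 0.00497), or 163% of the control mean. The log2 ratio of KO to control within the replicate numbers 1, 2 and 3 was 0.57, 0.49 and 1.09. Without control replicate 3 the fold change shrank to 0.51, still called (edgeR adjusted p = 0.0113). Its start lies 243 bases from that of Med29, a Mediator subunit gene on the opposite strand, with 8.18 ± 1.74 CPM in control libraries and 9.90 ± 0.723 CPM in KO libraries (SD, n = 3), which was not called (log2 fold change 0.27, edgeR adjusted p = 0.305).

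Cdc73 encodes parafibromin, a subunit known as a tumour suppressor in people. It held 133, 120 and 130 CPM in the control libraries and 109, 99.2 and 95.2 CPM in the KO libraries. The groups did not overlap, and the gap between the lowest control and the highest KO library was small beside the fall of Rtf1. The log2 fold change was −0.34 (SE 0.106, 95% interval −0.58 to −0.096, edgeR adjusted p = 0.029). The call ended when only library size was used for scaling (edgeR adjusted p = 0.0959), with the libraries numbered 1 and 2 alone (0.104), and without control replicate 1 (0.0605), KO replicate 2 (0.104) or KO replicate 3 (0.109).

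Ctr9 encodes the large scaffold subunit, and Leo1 a subunit that pairs with PAF1. Ctr9 held 63.6, 75.1 and 59.8 CPM in control and 83.3, 81.8 and 77.6 CPM in KO. Leo1 held 60.2, 69.5 and 50.5 CPM in control and 73.6, 77.1 and 76.0 CPM in KO. In both genes every KO library lay above every control library, control replicate 2 coming nearest, and the KO libraries were closer together than the control libraries. Neither was called: the log2 fold change of Ctr9 was 0.29 (SE 0.119, 95% interval 0.021 to 0.56, edgeR adjusted p = 0.0734) and that of Leo1 was 0.33 (SE 0.133, 0.030 to 0.63, edgeR adjusted p = 0.0684). These intervals are not adjusted for the number of genes tested. With the replicate number as a block, a fit that compares libraries of equal number, both were called (edgeR adjusted p = 0.0443 and 0.0347). They were also called when only library size was used for scaling (0.0249 and 0.0267) and without control replicate 2 (0.0275 and 0.0260), and without control replicate 3 both shrank to a log2 fold change of 0.16.

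Wdr61, also named SKI8, encodes a WD-repeat subunit that the complex shares with the SKI complex of RNA decay. It held 67.4, 81.9 and 55.8 CPM in control and 68.0, 66.9 and 58.7 CPM in KO. All KO libraries lay within the range of the control libraries. The 95% interval of its log2 fold change ran from −0.43 to 0.26 (−0.083, edgeR adjusted p = 0.681), so these libraries leave room for a change of that size in either direction. The sign turned when only library size was used for scaling (0.0080) and without control replicate 2 (0.056), and without control replicate 3 the value was −0.27. Exons of Dnaja4 overlap 33.9% of its exonic bases, and reads from these 2 genes may not be separable, as no strand setting is given. Dnaja4 held 11.5 CPM in control and 7.83 CPM in KO (log2 fold change −0.56, edgeR adjusted p = 0.0577).

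**Figure D2:**
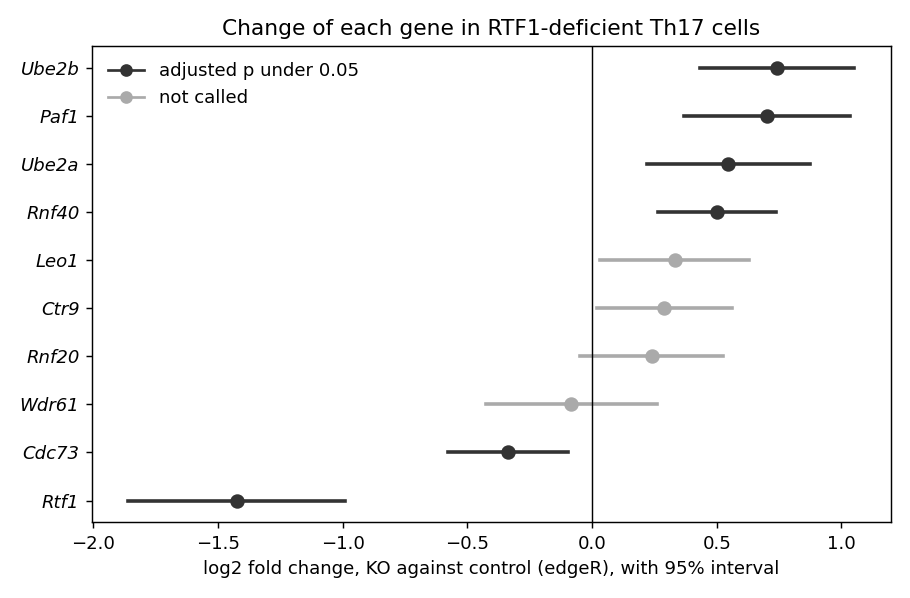
Fitted log2 fold change of each of the 10 genes, KO against control (horizontal axis), with its 95% interval; dark points passed an adjusted p of 0.05 and grey points did not. Rtf1 stands alone at −1.42, and the other 9 genes lie between −0.34 and 0.74.

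The ligase genes Rnf20 and Rnf40 encode RING proteins that act as a pair. Rnf40 held 78.97, 82.7 and 72.7 CPM in control and 108, 108 and 116 CPM in KO. The groups lay well apart, and the log2 fold change was 0.50 (SE 0.104, 95% interval 0.27 to 0.74, edgeR adjusted p = 0.0048). Without control replicate 3 it shrank to 0.39, still called (edgeR adjusted p = 0.0228). Exons of 1700120K04Rik and Gm44759, which were too scarce to be tested, overlap 13.6% of its exonic bases. Rnf20 held 144, 146 and 121 CPM in control and 170, 173 and 142 CPM in KO. Its groups overlapped, with replicate 3 the lowest library in both. Within each replicate number Rnf20 was higher in KO by almost the same amount, 0.25, 0.24 and 0.23 on the log2 scale, yet it was not called (log2 fold change 0.24, 95% interval −0.047 to 0.53, edgeR adjusted p = 0.150, and 0.0693 with the replicate block). Without control replicate 3 the fold change shrank to 0.10. The ratio of Rnf20 to Rnf40 counts averaged 1.75 ± 0.0749 over control libraries and 1.47 ± 0.205 over KO libraries (SD, n = 3), with single libraries at 1.82, 1.77 and 1.67 against 1.58, 1.60 and 1.23. KO replicate 3 gave the lowest ratio, and the groups did not overlap.

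The E2 genes rose together. Ube2b held 104, 118 and 120 CPM in control and 169, 224 and 180 CPM in KO. KO replicate 2 was the highest and no KO library came near the control range. The log2 fold change was 0.74 (SE 0.136, 95% interval 0.43 to 1.05, edgeR adjusted p = 0.00288), the largest increase among the 10 genes in this fit. Paf1 rose more than Ube2b without control replicate 1, control replicate 2 or KO replicate 2, and less in the other alternative fits. Ube2a, on the X chromosome, held 73.6, 90.1 and 69.5 CPM in control and 105, 132 and 104 CPM in KO. In both groups replicate 2 was the highest and the Y-positive replicate 3 the lowest, and the groups did not overlap. Its log2 fold change was 0.55 (SE 0.144, 95% interval 0.22 to 0.87, edgeR adjusted p = 0.014), and the call ended without control replicate 1 (0.44, adjusted p = 0.104), control replicate 3 (0.41, 0.0552) or KO replicate 2 (0.43, 0.063). With the libraries numbered 1 and 2 alone, Ube2a was still called (0.53, edgeR adjusted p = 0.0181). The ratio of Ube2a to Ube2b counts averaged 0.683 ± 0.0953 over control libraries and 0.596 ± 0.0229 over KO libraries (SD, n = 3), and here the groups overlapped.

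Since Rtf1 fell while most of its partners did not, the balance between them was followed within each library, where a ratio of counts does not depend on library scaling. The ratio of Rtf1 to Paf1 counts was 1.63, 1.38 and 1.92 in the control libraries and 0.527, 0.326 and 0.268 in the KO libraries, or 1.64 ± 0.275 against 0.374 ± 0.136 (SD, n = 3). Rtf1 thus went from more counts than Paf1 in every control library to fewer in every KO library. The ratio of Rtf1 to Ctr9 moved from 1.39 ± 0.152 to 0.417 ± 0.110, and that of Rtf1 to Leo1 from 1.54 ± 0.219 to 0.451 ± 0.144. The ratio of Rtf1 to Cdc73, the subunit that also fell, moved from 0.715 ± 0.0405 to 0.332 ± 0.0742, the smallest shift of the 4. On the log2 scale the shifts were −2.18 for Paf1, −1.76 for Ctr9, −1.81 for Leo1 and −1.13 for Cdc73, and in none did the groups overlap. Between the core subunits themselves, Paf1 to Cdc73 counts went from 0.446 ± 0.100 to 0.917 ± 0.119. Rtf1 was the target of the knockout, so its own fall sets most of these shifts.

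**Figure D3:**
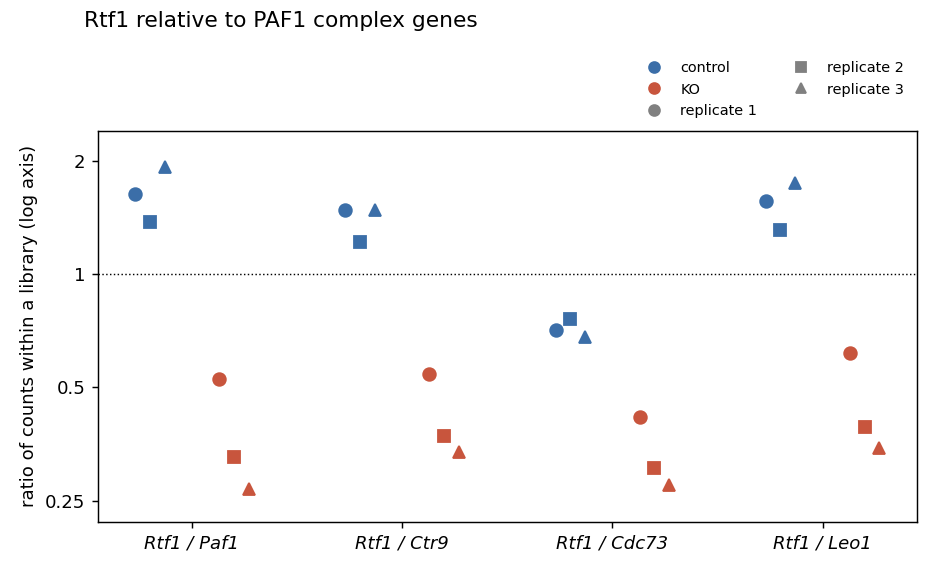
Ratio of Rtf1 counts to those of Paf1, Ctr9, Cdc73 and Leo1 within each library (vertical axis, log scale; dotted line at equal counts), with control and KO libraries in separate colours and symbols for the replicate number. All KO points lie below all control points, and KO replicate 1, with the most Rtf1, gave the highest KO ratio for each of the 4 genes.

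The KO libraries differed in how much Rtf1 remained, replicate 1 holding the most and replicate 3 the least, and 3 libraries allow no correlation. The same order from high to low was found for Ctr9, Cdc73 and Wdr61. Paf1 and Rnf40 took the reverse order, being highest in replicate 3, where Rtf1 was lowest. Ube2a, Ube2b, Rnf20 and Leo1 were all highest in replicate 2. Of all tested genes, 23.3% shared the order of Rtf1, 20.1% took the reverse order and 29.4% were highest in KO replicate 2, so each of these orders was common. The steps were also small for several members: Ctr9 spanned only 77.6 to 83.3 CPM and Leo1 73.6 to 77.1 CPM over the KO libraries. In the control libraries, where Rtf1 varied little, replicate 3 was the lowest for 8 of the 10 genes, against 35.4% of all tested genes.

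Levels can be compared between genes only per length, here as CPM per kilobase of annotated exon. In control, Ube2b (53.6 ± 4.22) and Ube2a (34.2 ± 4.79) stood above the others (SD, n = 3). Rnf20 (18.8 ± 1.86), Paf1 (16.5 ± 2.98), Rtf1 (15.9 ± 0.495), Wdr61 (14.6 ± 2.80), Rnf40 (13.9 ± 0.897) and Leo1 (12.4 ± 1.96) followed, and the ranges of neighbours in this order overlapped. Ctr9 (8.27 ± 0.997) and Cdc73 (7.25 ± 0.374) were the lowest, below the range of Leo1, and their own ranges of 7.47 to 9.39 and 6.83 to 7.53 overlapped. In KO, Rtf1 came down to 5.92 ± 1.75 CPM per kilobase, a range of 4.57 to 7.90 that took in Cdc73 (5.74 ± 0.395), while Paf1 stood at 26.8 ± 1.72. The order rests on the length used. With the longest principal transcript in place of all exons, a choice made after the data were seen, Wdr61 rose from rank 6 to rank 2 in control (53.0 ± 10.1 CPM per kilobase) and Rtf1 took rank 7 (19.5 ± 0.609).

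The genes whose pattern over the 6 libraries was nearest to that of Rtf1 were found by the root-mean-square difference of centred log2 CPM, searched among the 9448 tested genes whose mean reached 5 CPM. They were Pdxk (pyridoxal kinase, 0.045), Cenpf (a kinetochore protein, 0.053), Irak1bp1 (0.058), Cdca2 (a mitotic chromatin protein, 0.062) and Lrp8 (a lipoprotein receptor, 0.065). Cenpf, for example, held 178, 189 and 177 CPM in control and 84.7, 57.2 and 51.5 CPM in KO. No member of the PAF1 complex or of the ubiquitin enzymes was among these 5. The log2 fold changes of the other members, −0.34 to 0.74 against −1.42 for Rtf1, had already settled this.

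The 4 members called higher are also those of the 10 with an annotated opposite-strand start within 1000 bases of their outermost GENCODE start. This arrangement was noticed after their values were seen. Besides Med29 beside Paf1, these neighbours are Ccdc189, 172 bases from Rnf40, C330007P06Rik, 211 bases from Ube2a, and the antisense gene Gm12204, 91 bases from Ube2b. C330007P06Rik rose, with 49.4 ± 1.35 CPM in control libraries and 74.2 ± 2.51 CPM in KO libraries (SD, n = 3), a log2 fold change of 0.59 (edgeR adjusted p = 0.00219) beside the 0.55 of Ube2a, and Ccdc189 was scarce (0.867 ± 0.106 and 1.82 ± 0.713 CPM; 1.09, edgeR adjusted p = 0.0499). Gm12204 was not tested. Across tested protein-coding genes the arrangement made little difference: 22.9% of 3341 genes with such a neighbour were called higher, and 23.0% of 9166 genes without one.

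Enzymes that remove ubiquitin from H2B, with the partner subunits Atxn7, Atxn7l3 and Eny2, formed the first of 3 wider lists. All 3 lists were chosen with earlier results of these data known. Of the 12 genes in the first list, 11 were tested, and 3 (27.3%) were called higher and none lower. Of all tested genes 46.1% were called, 23.2% higher and 22.9% lower. The median log2 fold change in the list was −0.079. An unadjusted edgeR p under 0.05 was found for 6 of the 11, and for 7724 of all 14268 tested genes. DESeq2 also called 3 of the list higher and none lower. Usp27x, a paralog of Usp22, rose from 4.50, 5.53 and 6.08 to 10.3, 10.9 and 13.8 CPM (log2 fold change 1.11, SE 0.209, edgeR adjusted p = 0.00318). Usp12 (0.65, adjusted p = 0.00459) and Atxn7, which anchors the deubiquitinase module in the SAGA complex (0.65, adjusted p = 0.00347), rose as well. Usp22, the main catalytic subunit of that module, had a log2 fold change of −0.28 (95% interval −0.59 to 0.020, adjusted p = 0.112), and its cofactors Atxn7l3 and Eny2 had 0.26 (adjusted p = 0.080) and −0.19 (adjusted p = 0.335). Wac, an RNF20 and RNF40 partner, averaged 142 ± 1.25 CPM over control libraries and 136 ± 5.28 CPM over KO libraries (SD, n = 3), a log2 fold change of −0.069 (edgeR adjusted p = 0.590) that turned to 0.018 when only library size was used for scaling, and the E2 gene Ube2e1 had a log2 fold change of −0.15 (adjusted p = 0.373).

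Genes that work with RTF1 in elongation, together with the SKI complex that shares WDR61, moved in both directions. All 14 were tested, and 5 were called higher and 3 lower (median log2 fold change 0.12). The share called was 57.1%, against 46.1% of all tested genes, which also moved in both directions (23.2% higher, 22.9% lower). Upper-quartile factors gave 4 in each direction. Supt4a and Supt5 encode the subunits of DSIF, through which RTF1 contacts the polymerase. Supt4a rose from 56.7, 71.5 and 56.0 to 124, 160 and 163 CPM (log2 fold change 1.28, SE 0.151, edgeR adjusted p = 0.000459), and Supt5 by 0.54 (adjusted p = 0.00488). Of the SKI genes, Skiv2l, the helicase, rose from 87.4, 97.4 and 72.6 to 131, 157 and 169 CPM (0.83, adjusted p = 0.0024), whereas Ttc37, the scaffold, fell from 91.9, 88.1 and 94.5 to 58.6, 44.7 and 35.8 CPM (−0.98, adjusted p = 0.00226). Wdr61, their common partner, stayed between 55.8 and 81.9 CPM in all libraries. Tcea1, the elongation factor TFIIS (−0.95, adjusted p = 0.000808), and Ssrp1, a subunit of the histone chaperone FACT (−0.79, adjusted p = 0.00533), fell. Cdk9 and Ccnt1, the subunits of P-TEFb, both had a log2 fold change of 0.33 (adjusted p = 0.0369 and 0.0343), calls that ended in 9 and 10 of the 14 alternative fits.

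In the list of histone methylation genes linked to H2B ubiquitin, 9 genes were tested, 3 were called higher and 2 lower. The median log2 fold change was −0.22, and 55.6% were called, against 46.1% of all tested genes. Upper-quartile factors gave 3 higher and 4 lower, and library size alone 3 and 1. Setd1b, a catalytic subunit of the SET1 complex, rose from 40.2, 32.7 and 39.7 to 68.5, 76.7 and 80.1 CPM (log2 fold change 1.003, SE 0.128, edgeR adjusted p = 0.000616), while its paralog Setd1a had a log2 fold change of −0.22 (adjusted p = 0.191). Wdr82, a SET1 subunit (0.55, adjusted p = 0.00773), and Dot1l, the lysine 79 methyltransferase (0.50, adjusted p = 0.0358), were higher, and Rbbp5 (−0.43, adjusted p = 0.0163) and Dpy30 (−0.66, adjusted p = 0.0462), core subunits of these complexes, were lower. The groups of Dpy30 overlapped, and its call ended when only library size was used for scaling (edgeR adjusted p = 0.0734) and without control replicate 1 (0.0971), control replicate 2 (0.155), KO replicate 2 (0.114) or KO replicate 3 (0.140). The call of Rbbp5 ended without KO replicate 2 (0.0668) or KO replicate 3 (0.0679), and that of Wdr82 without control replicate 1 (0.0635). The count of calls in this list fell to 3 without control replicate 1 or 2 and to 2 without KO replicate 2 or 3. Calls over all tested genes fell in the same fits, from 6574 to 5221 and 5827 without control replicates 1 and 2. They fell to 4460 and 5038 without KO replicates 2 and 3. The call of Dot1l ended without each of control replicates 2 and 3 and KO replicates 1, 2 and 3, and with the libraries numbered 1 and 2 alone, and its fold change shrank to 0.28 without control replicate 3.

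**Figure D4:**
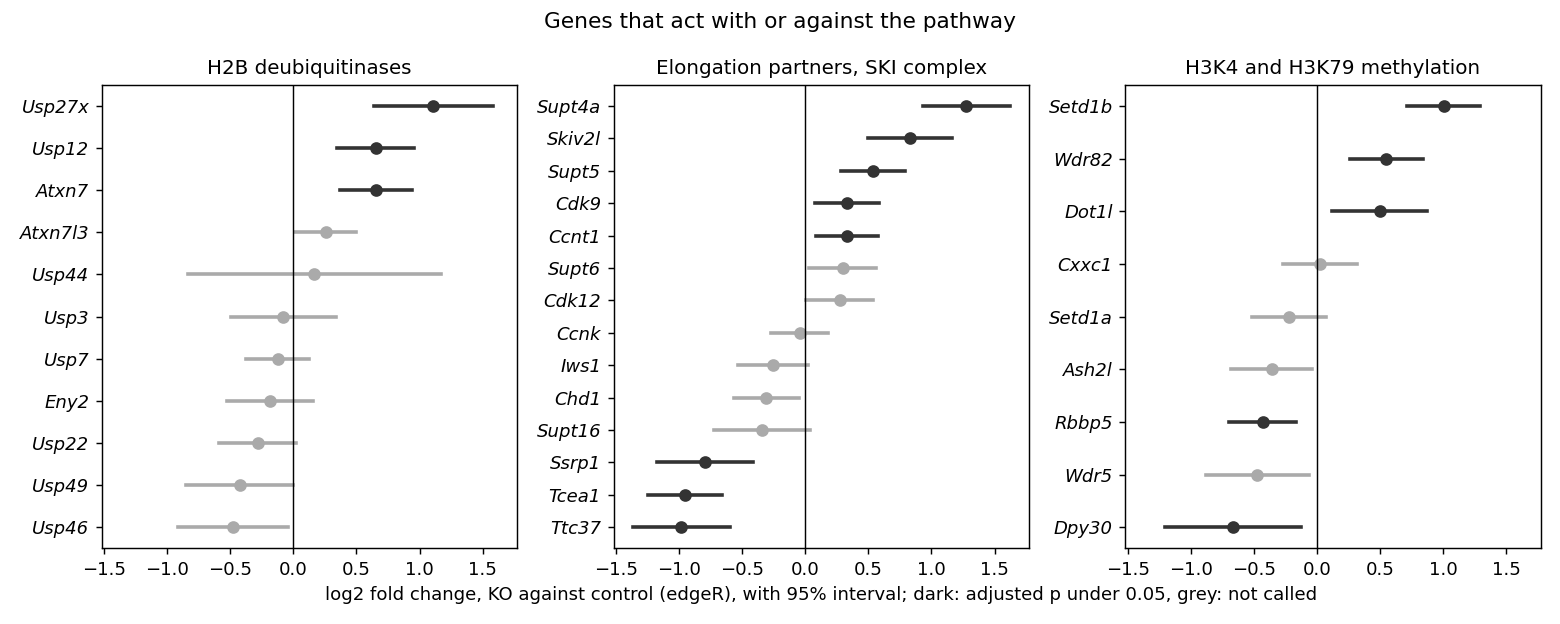
Fitted log2 fold changes, KO against control, with 95% intervals (horizontal axis) for the tested genes of the 3 wider lists; dark points passed an adjusted p of 0.05 and grey points did not. Each list holds genes on both sides of 0, with Supt4a the highest at 1.28 and Ttc37 the lowest at −0.98.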

How the data were processed

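The deposited table gave whole-number counts per gene symbol, and the submitters' processing notes name STAR, featureCounts and DESeq2 and the build mm10, without versions or roles; annotation and strand setting are not given in the sources used here. Groups and replicate numbers come from the sample titles, columns from the descriptions. No column or line was left unmapped. The members and lists were chosen with earlier results of these data known.

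KO was compared with control over all 6 libraries in edgeR 4.0.16 (R 4.3.3): TMM factors, filterByExpr (14268 genes, 99.9% of counts), the quasi-likelihood test and Benjamini-Hochberg adjustment over all tested genes. A standard error is the absolute log2 fold change over the square root of F. The procedure was tested on simulated data in which few genes changed, in random directions and with the same variability for all genes. In these data 46.1% of tested genes were called, so the simulation does not check scaling or error rates in that setting. The common biological coefficient of variation over all tested genes was 0.212. The members' own values were lower, from 0.114 (Rnf40) to 0.175 (Rtf1), each above the counting error of that member. Named genes are the 10 members, the fixed lists and the 5 genes nearest to Rtf1 in profile (mean of at least 5 CPM, standard symbol). Positions, exon lengths and overlaps were taken by symbol from GENCODE release M21 (GRCm38, the assembly mm10), which held 98.2% of the symbols.

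Deviations from the group means correlated at 0.270, 0.130 and 0.379 for libraries of equal replicate number. For unequal numbers the correlations ran from −0.390 to 0.204, the latter for control replicate 2 with KO replicate 1. The numbers may pair the libraries, but the meaning of a number is not given in the labels. The main fit therefore had no replicate block, and with the block 7628 genes were called against 6574. Alternatives were 3 other scalings, 2 filters, the DESeq2 test (1.42.0), the replicate block, leaving out each library, and the libraries numbered 1 and 2 alone.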

Additional observations from a re-analysis of the deposited data

How the results depend on the processing

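Rtf1, Paf1, Rnf40 and Ube2b stayed called in the same direction in each of the 14 alternative fits. Rnf20 and Wdr61 were called in none of them. The log2 fold change of Rtf1 lay between −1.69 and −1.27 when 1 library was left out. The number of members called was 4 to 8 with 1 library left out and 8 with the replicate block, which added Ctr9 and Leo1 and changed no other member's call. Over all tested genes the number called was 4460 to 7050 with 1 library left out, against 6574 in the main fit. In the wider lists the block added calls for Usp46, Supt16, Cdk12, Chd1, Ash2l and Wdr5 and removed none. Library size as the only scaling moved the median of all tested genes from 0.013 to 0.10 and gave 3809 higher and 2799 lower calls, against 3305 and 3269. The methylation list had 2 to 6 calls with 1 library left out, 3 without control replicate 1 or 2 and 2 without KO replicate 2 or 3. Among the members and the listed genes, only genes that were not called reversed. Under library size only they were Wdr61 (0.0080), Usp3 (0.011), Ccnk (0.045) and Wac (0.018). With 1 library left out Wdr61 ran from −0.27 to 0.056 (without control replicates 3 and 2), Usp44 from −0.29 to 0.35 (without KO replicates 1 and 3), Usp3 from −0.27 to 0.089 (without control replicates 1 and 3) and Cxxc1 from −0.14 (without control replicate 3) to 0.10, with −0.034 and −0.0049 without control replicate 1 and KO replicate 1. With the libraries numbered 1 and 2 alone Usp3 was 0.16 and Cxxc1 −0.047, and in the DESeq2 test Cxxc1 was −0.0030. The cause was not tested. The order of the members in the KO libraries was the same under each scaling, except that Ube2a in replicates 1 and 3 changed places with upper-quartile factors.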
